A study of Homo sapiens with 6 samples.

Results

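The serpin genes were followed in 2 ovarian carcinoma lines, SKOV-3 and Caov-3, given interleukin-6 (IL-6) with or without an antibody against it. The members were the genes whose symbol in the annotation table used here is SERPIN followed by 1 letter from A to I and digits, with nothing after. The rule found 30 of the 19775 genes with a symbol of their own, represented by 48 probe sets, and each gene was read from its brightest probe set, the one with the highest mean over the 6 arrays. Total RNA was hybridised to 6 Affymetrix arrays, 1 per line and treatment, and every array held RNA pooled from 3 flasks. The groups were untreated cells, cells exposed for 1 h to 30 ng/ml IL-6, and cells with siltuximab (CNTO328, an antibody that binds IL-6) for 4 h and then the same IL-6 for 1 h. No group had a replicate, no array of the antibody alone was analysed here, so precision is limited by having 1 array per group.

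Serpins are a family of folded proteins most of which trap a serine protease. The protease cuts an exposed loop of the serpin, the loop springs into the body of the molecule, and both partners stay locked together. Clade A serpins are mostly secreted by the liver, clade B serpins mostly stay inside cells, and a few serpins inhibit nothing and act as chaperones, hormone carriers or signals. SERPINA1, SERPINA3 and SERPING1 are known acute phase genes that IL-6 and its transcription factor STAT3 induce in hepatocytes.

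The arrays had been scaled to a common trimmed mean of 500.06 to 500.07. Across the genes tested, arrays of one line correlated at r = 0.975 to 0.989 and arrays of different lines at 0.729 to 0.742, so that the lines stood far apart. On the Caov-3 IL-6 array 249 genes stood 2-fold or more under the rest of their line, a number that was 38 to 65 on the other arrays. Its beta-actin 5' to 3' signal ratio, a measure of RNA integrity, was 0.494 against 0.643 to 0.767. ERBB2, amplified in SKOV-3 cells as usually described, was at 580 to 733 on the arrays labelled SKOV-3 and at 1017 to 1243 on those labelled Caov-3. Taken alone, that value goes against the SKOV-3 label, but any ERBB2 probe set that carries several symbols was not read. Whether the labels hold was not tested, and the names of the lines below are those of the labels. KRT8 and KRT18, the keratins of simple epithelium, were no lower than 7079 and 25102 on any of the 6 arrays. In the list of epithelial markers 7 of 9 genes tested were called higher in Caov-3 by the limma fit below, and 0 higher in SKOV-3. Of all genes, 38.6% and 32.3% were so called. Those with the largest differences were KRT19, CDH1, MUC1 and MSLN. KRT19, CDH1, MSLN and MUC16 were below the array median on every SKOV-3 array, and so were tested through Caov-3 alone. CDH1 (E-cadherin) was at 11.03 to 27.5 in SKOV-3 and 4763 to 5094 in Caov-3. None of 6 hepatocyte markers, among them albumin (ALB), passed the filter on dim genes, and their summed signal was 143 to 243 in SKOV-3 and 194 to 281 in Caov-3.

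Genes were tested where 2 or more arrays reached their own median, which lay at a signal of 102 to 122. Of the 30 serpin genes 13 passed this filter and 17 did not. The 17 dim members ran from 2.38 to 136 on all arrays. They were SERPINA2, SERPINA4, SERPINA6, SERPINA7, SERPINA9, SERPINA10, SERPINA12, SERPINB3, SERPINB4, SERPINB10, SERPINB11, SERPINB12, SERPINB13, SERPINC1, SERPIND1, SERPINF2 and SERPINI2. They include the genes of the blood clotting inhibitors antithrombin (SERPINC1) and heparin cofactor (SERPIND1) and the carriers of cortisol (SERPINA6) and thyroxine (SERPINA7). Just outside the filter, SERPINA4, SERPINA9 and SERPINF2 reached the median on 1 array each, with 117.5, 136 and 116. Just inside it, SERPINB7 reached the median on 2 arrays, with 115 and 112, and SERPINA5 on 4. Of the 13, 7 were at or above the median on all 6 arrays, and 4 were so in 1 line only and could not have passed without differing between the lines.

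The first comparison asked how the serpin genes differed between the lines. SERPINB5 and SERPING1 were far higher in Caov-3, and SERPINB9, SERPINF1, SERPINA3 and SERPINB7 were far higher in SKOV-3. SERPINH1, the collagen chaperone, stood at nearly the same level in both. Log2 values of signal plus 17.06 were compared over all 6 arrays by limma with treatment as a factor. The 3 arrays of a line are 3 treatments, not replicates, and p-values rest on how the line difference varied between treatments. A gene was called at a Benjamini-Hochberg adjusted p under 0.05 over all genes. Of the 13 members 10 were called (76.9%), 5 higher in each line, where 70.8% of all 12290 genes were called, 38.6% higher in Caov-3 and 32.3% higher in SKOV-3. Of the same 13, 7 were called and at least 2-fold apart (53.8%), beside 34.7% of all genes. The median absolute difference was 1.41 on the log2 scale over the 13 members and 0.68 over all genes. These shares are descriptions, since 4 of the 13 passed the filter through one line alone.

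**Figure D1:**
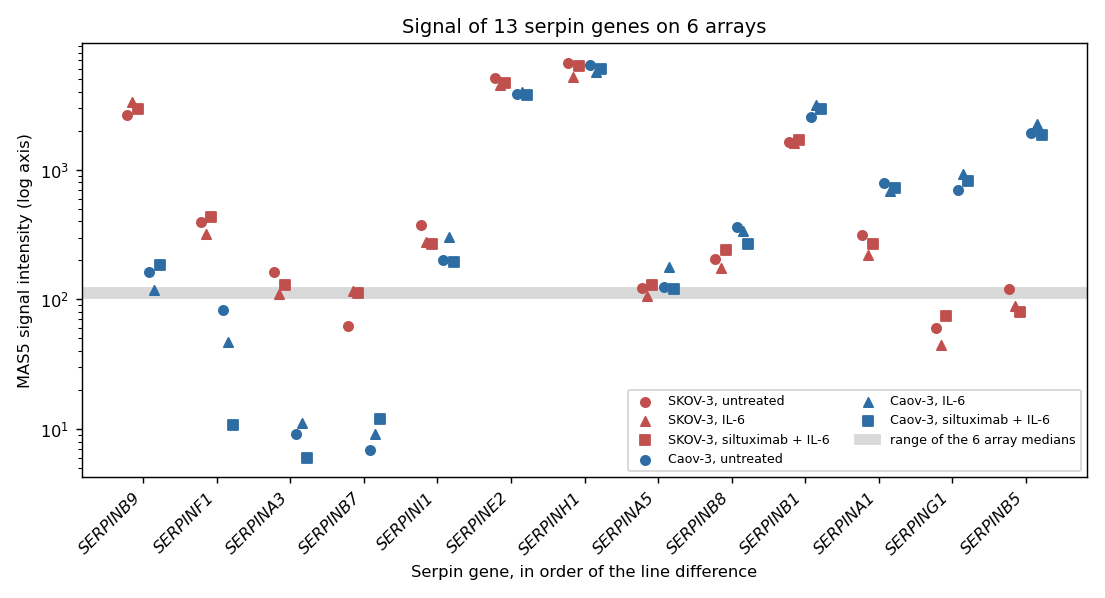
Signal of the 13 serpin genes past the filter on each of the 6 arrays, on a log axis, with red for SKOV-3, blue for Caov-3 and a symbol for each treatment. The grey band is the range of the array medians, 102 to 122, and in 10 of the 13 genes the 3 arrays of one line all lie above those of the other.

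Among the serpins that stay inside cells, SERPINB5 (maspin), a serpin of epithelial cells that acts as a tumour suppressor and inhibits no known protease by the usual trap, was at 1915 untreated, 2255 after IL-6 and 1860 after siltuximab then IL-6 in Caov-3. In SKOV-3 it was at 120.2, 88.8 and 79.4 in the same order. All Caov-3 arrays thus lay far above all SKOV-3 arrays, a log2 difference of 4.17 (SE 0.159, limma adjusted p 1.54e-06). The squamous keratin KRT5 was also higher in Caov-3, with 147 to 218 against 11.3 to 33.4, while the other 4 squamous markers measured did not pass the filter. KRT5 was below the array median on every SKOV-3 array, and so was tested through Caov-3 alone. Its part in the SERPINB5 difference was not tested.

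SERPINB9, which inhibits the granzyme B of killer lymphocytes, stood the other way. It was at 2625 untreated, 3325 after IL-6 and 2923 after siltuximab then IL-6 on SKOV-3 arrays, and at 161.5, 117 and 184 on Caov-3 arrays. The log2 difference was -4.13 (SE 0.173, limma adjusted p 2.28e-06). Further probe sets of SERPINB9 were at -1.67 and -1.93.

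SERPINB1, which guards neutrophils and epithelium against elastase and cathepsin G, was at 1640, 1606 and 1710 on SKOV-3 arrays and at 2559, 3160 and 2971 on Caov-3 arrays. That is a log2 difference of 0.80 (SE 0.0946, limma adjusted p 0.00024). SERPINB7 (megsin), a serpin of kidney mesangium and skin, was at 62.4, 115 and 112 on SKOV-3 arrays and at 6.93, 9.11 and 11.96 on Caov-3 arrays, a log2 difference of -2.07 (SE 0.373, adjusted p 0.00194), and these levels are near the limit of the filter. SERPINB8, which can inhibit furin, was at 204, 174 and 242 on SKOV-3 arrays and at 365, 340 and 268 on Caov-3 arrays. Its log2 difference of 0.61 (SE 0.203, limma adjusted p 0.0301) was not called without the untreated or the IL-6 array of either line (adjusted p 0.107 to 0.13), and its second probe set was at 0.01.

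The promoters of SERPINB5, SERPINB9 and SERPINB1 are shown because these 3 intracellular serpins had the smallest adjusted p of clade B and stood in both directions, and because methylation of CG pairs in the promoter is a known means of silencing SERPINB5. The windows run from 250 bases before to 50 after the RefSeq start in GRCh38.p14 and are written on the gene's strand, with CG pairs in capitals. SERPINB5 lies at chr18:63476708-63477007 (plus strand), SERPINB9 at chr6:2903260-2903559 (minus strand) and SERPINB1 at chr6:2841814-2842113 (minus strand).
SERPINB5: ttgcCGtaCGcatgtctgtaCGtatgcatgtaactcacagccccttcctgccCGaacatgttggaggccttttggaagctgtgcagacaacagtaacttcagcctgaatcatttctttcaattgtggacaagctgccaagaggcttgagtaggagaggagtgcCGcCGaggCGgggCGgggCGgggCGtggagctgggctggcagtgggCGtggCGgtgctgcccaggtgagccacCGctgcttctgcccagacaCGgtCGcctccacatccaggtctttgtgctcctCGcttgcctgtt
SERPINB9: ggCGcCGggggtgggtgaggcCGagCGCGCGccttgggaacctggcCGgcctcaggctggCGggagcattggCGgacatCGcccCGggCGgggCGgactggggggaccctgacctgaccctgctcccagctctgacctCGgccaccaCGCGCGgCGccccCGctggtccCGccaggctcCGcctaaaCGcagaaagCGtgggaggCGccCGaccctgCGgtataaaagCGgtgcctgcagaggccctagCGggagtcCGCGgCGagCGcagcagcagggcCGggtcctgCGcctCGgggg
SERPINB1: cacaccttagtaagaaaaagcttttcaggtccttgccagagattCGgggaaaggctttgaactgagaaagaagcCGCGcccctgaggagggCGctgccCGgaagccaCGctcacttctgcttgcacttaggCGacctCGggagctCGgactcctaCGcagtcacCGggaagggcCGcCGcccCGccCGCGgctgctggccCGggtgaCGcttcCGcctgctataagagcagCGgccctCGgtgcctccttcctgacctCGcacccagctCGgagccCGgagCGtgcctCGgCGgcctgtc
The SERPINB5 window holds 16 CG pairs, and 47.5% of 35116 promoter windows hold at least as many. SERPINB9 holds 35, a number reached by 14.1% of windows, and SERPINB1 holds 27, reached by 28.2%. These letters describe the windows, and no methylation was measured on these arrays.

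**Figure D2:**
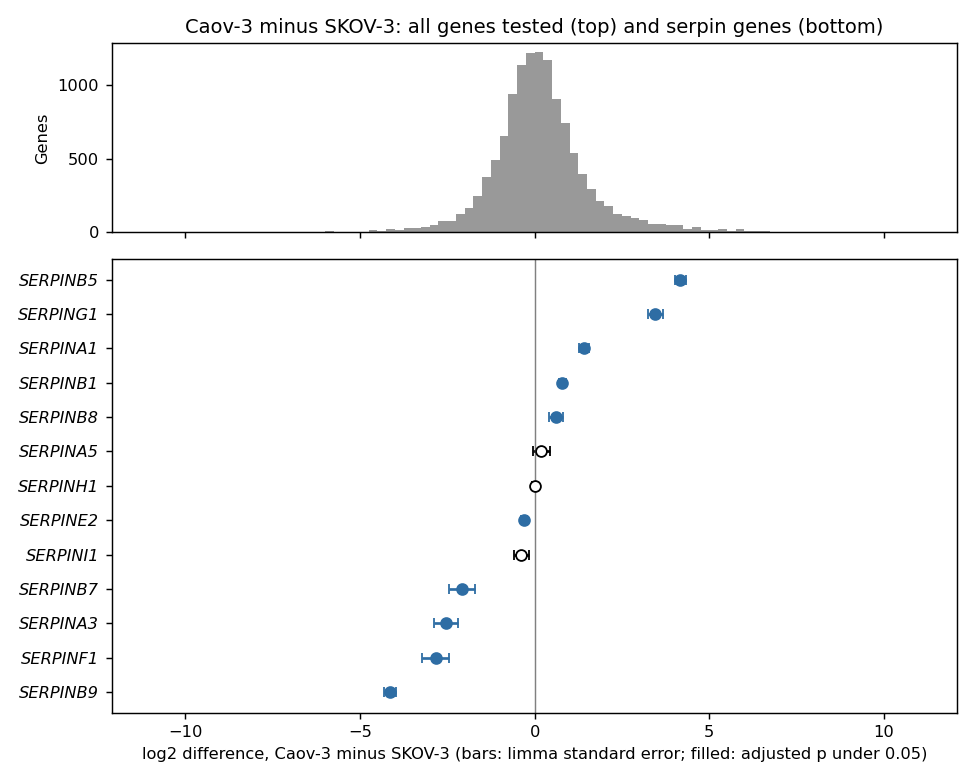
The top panel counts all 12290 genes tested by their log2 difference, Caov-3 minus SKOV-3, and the bottom panel gives the 13 serpin genes with limma standard errors. Filled points have an adjusted p under 0.05, and the members run from -4.13 (SERPINB9) to 4.17 (SERPINB5) with SERPINH1 at 0.00.

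Among the secreted inhibitors, SERPING1, the inhibitor of the complement proteases C1r and C1s and of plasma kallikrein, was at 695 untreated, 936 after IL-6 and 823 after siltuximab then IL-6 in Caov-3. In SKOV-3 it was at 60.1, 44.3 and 73.8, below the array median on every array. The log2 difference was 3.46 (SE 0.211, limma adjusted p 1.1e-05). SERPINA1 (alpha-1-antitrypsin), which inhibits neutrophil elastase, was at 315, 218 and 269 on SKOV-3 arrays and at 792, 684 and 725 on Caov-3 arrays, a log2 difference of 1.41 (SE 0.134, adjusted p 8.1e-05). Its second bright probe set was at 1.80. SERPINA3 (antichymotrypsin), an inhibitor of cathepsin G, was at 163, 109 and 130 on SKOV-3 arrays and at 9.1, 11.1 and 6.0 on Caov-3 arrays. Its log2 difference was -2.54 (SE 0.349, limma adjusted p 0.000501). Of the 3 acute phase serpins, SERPINA1 and SERPING1 were thus higher in Caov-3 and SERPINA3 was higher in SKOV-3.

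SERPINF1 (PEDF), a secreted factor that restrains vessel growth and is no inhibitor, was at 397, 317 and 432 in SKOV-3. In Caov-3 it was at 82.1, 46.5 and 10.6, below the median on every array, and the log2 difference was -2.82 (SE 0.387, limma adjusted p 0.000498). Folds of SERPINF1, SERPINA3, SERPINB7 and SERPING1 are against dim values, and adding 17.06 before the logarithm makes them smaller than the ratio of signals. SERPINE2 (protease nexin), which inhibits thrombin and urokinase at the cell surface, was at 5109, 4544 and 4660 on SKOV-3 arrays and at 3836, 4009 and 3766 on Caov-3 arrays. Its log2 difference of -0.30 (SE 0.0787, limma adjusted p 0.0115) was small, and it was not called without the untreated or the siltuximab array of either line (adjusted p 0.0643 to 0.0987).

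The remaining 3 members were not called. SERPINH1 (HSP47), which holds newly made collagen in the endoplasmic reticulum, was at 6654, 5231 and 6269 on SKOV-3 arrays and at 6426, 5701 and 5984 on Caov-3 arrays, a log2 difference of 0.00 (SE 0.0742, limma adjusted p 0.981). SERPINI1 (neuroserpin), an inhibitor of tissue plasminogen activator, was at 375, 276 and 269 against 201, 302 and 195, with a log2 difference of -0.38 (SE 0.217, adjusted p 0.15). It was called without the IL-6 array of SKOV-3 (-0.64, limma adjusted p 0.0296) or of Caov-3 (-0.64, 0.0269). SERPINA5, the protein C inhibitor, was at 121.4, 106 and 130 against 124, 177 and 121, with a log2 difference of 0.20 (SE 0.246, adjusted p 0.501). In 10 of the 13 genes the 3 arrays of one line all lay above those of the other (76.9%), as in 74.1% of all genes tested.

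Many serpin genes lie side by side, and their order was read from the GRCh38.p14 gene annotation. On chromosome 6 SERPINB1 and SERPINB9 are next to each other among coding genes, and they stood opposite ways between the lines, at 0.80 and -4.13. On chromosome 18 SERPINB5 begins a row of clade B genes that ends with SERPINB8. SERPINB5 was at 4.17, SERPINB7 at -2.07 and SERPINB8 at 0.61, while SERPINB3, SERPINB4, SERPINB10, SERPINB11, SERPINB12 and SERPINB13 did not pass the filter. On chromosome 14 SERPINA1 was at 1.41, SERPINA5 at 0.20 and its neighbour SERPINA3 at -2.54. On chromosome 17 SERPINF2, the inhibitor of plasmin, is next to SERPINF1 and did not pass the filter. SERPINA3 and SERPINB7 had passed the filter through SKOV-3 alone. Genes without values here are left out of these rows.

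**Figure D3:**
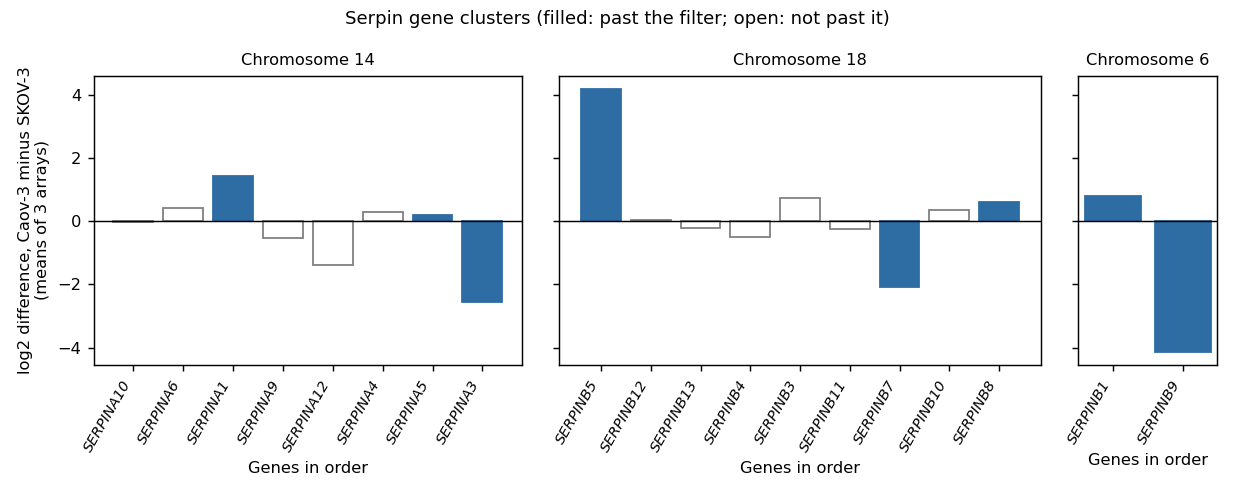
Log2 difference between the means of 3 arrays, Caov-3 minus SKOV-3, for the serpin genes of chromosomes 14, 18 and 6 in their order along the chromosome. Filled bars passed the filter and open bars did not, and in each panel filled bars point both ways. The downward filled bars of chromosomes 14 and 18, SERPINA3 and SERPINB7, passed the filter through SKOV-3 alone.

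The next comparison asked what 1 h of IL-6 did to serpin genes. No member was called in the test over both lines, the acute phase members included. No other gene was called in that fit either, so a member not called was not thereby shown to be unchanged. In SKOV-3, SERPINA3 was at 109 with IL-6 and 163 without (log2 fold -0.51) and SERPINA1 at 218 and 315 (-0.50). In Caov-3, SERPINA3 was at 11.1 and 9.1, both dim, and SERPINA1 at 684 and 792 (-0.21). SERPING1 was at 44.3 and 60.1 on the SKOV-3 arrays (-0.33), and in Caov-3 at 936 and 695 (0.42). The second probe set of SERPINA1 stood the other way, at 0.35 on SKOV-3 arrays and at 0.06 on Caov-3 arrays. SOCS3, the early STAT3 target that marks the response, was at a log2 difference of 0.48 over both lines (limma adjusted p 0.335).

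Over both lines limma called 0 of the 13 members for IL-6, as 0% of all 12290 genes were called. Without the SKOV-3 IL-6 array 451 of 12159 genes (3.71%) were called, and 0 of the 12 members then tested. At an unadjusted p under 0.05 there was 1 member, beside 1182 genes (9.62%) in all. That member was SERPINH1, with a log2 difference of -0.26 (SE 0.0909, limma p 0.025, adjusted p 0.447). It was at 5231 with IL-6 and 6654 without on SKOV-3 arrays, and at 5701 and 6426 on Caov-3 arrays. With siltuximab before IL-6 it was at 6269 and 5984, between both other values in each line. SERPINH1 therefore had its lowest value on the IL-6 array of each line, by a margin that limma did not call. The bright genes ACTB and ALDOA were also lower with IL-6 in both lines, and ACTN1 was higher in both. How many bright genes were lower in both was not counted, so the fall is not read as particular to SERPINH1.

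SERPINH1 is a heat shock gene, and its promoter is shown because it is the member with the lowest p for IL-6. The heat shock element was searched on both strands as GAANNTTCNNGAA, in the window at chr11:75562003-75562302 (GRCh38.p14, plus strand), with the match in capitals.
SERPINH1: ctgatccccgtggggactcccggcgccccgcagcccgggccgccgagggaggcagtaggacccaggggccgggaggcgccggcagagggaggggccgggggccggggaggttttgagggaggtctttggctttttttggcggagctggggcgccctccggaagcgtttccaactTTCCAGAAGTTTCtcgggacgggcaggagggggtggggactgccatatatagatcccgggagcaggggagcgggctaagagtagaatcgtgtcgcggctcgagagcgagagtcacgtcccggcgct
The match lies from base -76 to base -64 of the RefSeq start, read as its complement, and 0.49% of 35116 promoter windows hold one. The window of a second RefSeq start of SERPINH1, at chr11:75562223-75562522, holds none. The STAT motif TTCNNNGAA is in 8 of 33 windows of 23 members (7.66% of all windows hold it), and in none of those of SERPINH1, SERPINA1 or SERPINA3. A match is letters only, and none says nothing about STAT3.

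Within a line 1 array was set against 1, so that folds have no replicate check and no test. In SKOV-3, 2 of 15 members with a bright enough array were at least 2-fold lower with IL-6 and 0 were higher, beside 2.08% of all genes at least 2-fold apart. Both were dim genes that entered the count through the untreated array alone, where they were high, so the 2 are not read as a trait of serpins. SERPINA4 (kallistatin), an inhibitor of tissue kallikrein, was at 117.5 untreated, 10.96 after IL-6 and 81.6 after siltuximab then IL-6, a log2 fold of -2.26 for IL-6. SERPINF2 was at 116, 9.4 and 7.1, a log2 fold of -2.33. Neither passed the filter of the fit. In Caov-3, where 3.91% of all genes were at least 2-fold apart, 0 of 10 members were. The median fold of these members was -0.31 in SKOV-3 (all genes -0.05) and 0.15 in Caov-3 (all genes 0.08).

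Smaller folds could stand opposite ways in the lines, and 8 of the 13 members did so with IL-6. The share of all genes that did so was not counted, so the 8 are not read as a trait of serpins. They include SERPINA3 and SERPING1, each dim in 1 line. SERPINI1 was at -0.42 on SKOV-3 arrays and at 0.55 on Caov-3 arrays, SERPINB9 at 0.34 and -0.41, SERPINB5 at -0.37 and 0.23, and SERPINA5 at -0.16 and 0.46. SERPINB7 was highest of the members in SKOV-3 at 0.73 and was at 0.13 in Caov-3. The members lower in both lines were SERPINA1, SERPINB8, SERPINF1 and SERPINH1. The folds of Caov-3 rest on the array with the low beta-actin ratio, whose part in them was not tested.

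Probe sets of 1 gene disagreed by as much. In SKOV-3 with IL-6, the 3 bright probe sets of SERPINB1 were at -0.03, 0.35 and 0.89, and in Caov-3 at 0.30, 0.10 and -0.56. Those of SERPINB9 were at 0.34, 0.31 and -1.08 in SKOV-3, and in Caov-3 at -0.41, -2.62 and 0.25. The latter were at signals of 117, 2.45 and 80.4 with IL-6.

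**Figure D4:**
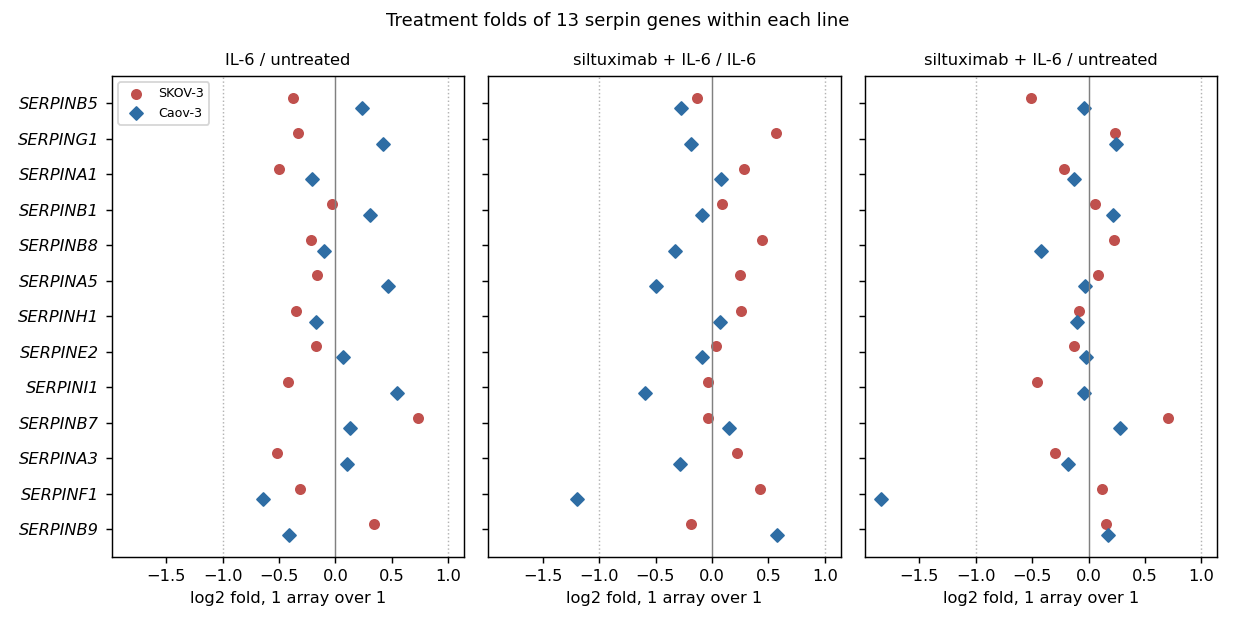
Log2 folds of 1 array over 1 array for the 13 serpin genes, with SKOV-3 as red circles and Caov-3 as blue diamonds, for IL-6 over untreated, siltuximab plus IL-6 over IL-6, and siltuximab plus IL-6 over untreated. Dotted lines mark 2-fold, and SERPINF1 in Caov-3, at -1.20 and -1.84 on dim arrays, is the one gene beyond them.

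The last comparison asked whether siltuximab before IL-6 altered these values, and shares the IL-6 arrays with the one before. In SKOV-3 SERPINA3 was at 130 with the antibody and 109 without (log2 fold 0.22), SERPINA1 at 269 and 218 (0.28), SERPING1 at 73.8 and 44.3 (0.57) and SERPINH1 at 6269 and 5231 (0.26). In Caov-3 SERPINA1 was at 0.08, SERPING1 at -0.18, SERPINH1 at 0.07 and SERPINB9 at 0.58. None was 2-fold, and 0 of 12 members in SKOV-3 and 0 of 10 in Caov-3 were at least 2-fold apart, beside 1.04% and 3.09% of all genes. Over both lines limma called 0 of 13 members, with 0 at an unadjusted p under 0.05, and 0% of all genes (398 at an unadjusted p under 0.05). Without the SKOV-3 IL-6 array 207 of 12159 genes (1.7%) were called, and 0 of 12 members.

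Against untreated cells, siltuximab plus IL-6 left 1 of 14 members at least 2-fold lower in SKOV-3, SERPINF2 with a log2 fold of -2.46, and 0 of 10 in Caov-3, beside 1.88% and 1.06% of all genes. SERPINF2 again entered through its untreated array alone. SERPINF1 in Caov-3 was at 10.6 against 82.1, a log2 fold of -1.84, but all 3 arrays were below the median, so that it was not among the 10. In SKOV-3 the same gene was at 432 against 397 (0.12). Over both lines limma called 0 of the 13 members, with 0 at an unadjusted p under 0.05, and 0% of all genes (705 at an unadjusted p under 0.05). The smallest adjusted p of a member was 0.866, that of SERPINF1.

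The proteases that serpins act on, with their receptors and cofactors, differed between the lines in both directions. Of 40 genes in that list 26 were tested, and limma called 16 higher in Caov-3 and 7 higher in SKOV-3, beside 38.6% and 32.3% of all genes. The median difference was 1.58 on the log2 scale, where that of all genes was 0.07. The complement proteases C1S and C1R, the targets of SERPING1, were higher in Caov-3 like SERPING1 itself, C1S at 7970 to 8095 against 74.7 to 146 (log2 difference 5.96, SE 0.164, limma adjusted p 4.92e-07) and C1R at 4.74. The kallikrein KLK10 and the membrane protease ST14 (matriptase) were also higher in Caov-3, at 5.56 and 5.08. KLK10, ST14, PRSS8, KLK6, KLK7, KLK8, TMPRSS4 and HPN were below the array median on every SKOV-3 array. They passed the filter through Caov-3 alone and could not have passed without differing, so the counts and the median are descriptions.

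Higher in SKOV-3 were the thrombin receptor F2R, at 4092 to 6400 against 0.755 to 9.01 (-7.97), and urokinase PLAU, a target of SERPINE2, at 5983 to 6208 against 590 to 695 (log2 difference -3.19, SE 0.0866, limma adjusted p 4.73e-07). F2R was below the array median on every Caov-3 array and passed the filter through SKOV-3 alone. Tissue plasminogen activator PLAT, the target of SERPINI1, was at -0.67. Furin (FURIN), which SERPINB8 can inhibit, was at 1.80, on the same side as SERPINB8. C1R, PLAU, PLAT and FURIN were named as partners of members after their values were seen. The leukocyte proteases ELANE, CTSG, PRTN3 and GZMB, the classical targets of SERPINA1, SERPINA3, SERPINB1 and SERPINB9, did not pass the filter, and nor did GZMA. All were at 2.34 to 93.6 on the 6 arrays.

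Of inhibitors of other families 11 of 18 tested were called higher in Caov-3 and 5 higher in SKOV-3, beside 38.6% and 32.3% of all genes. Their median difference was 1.40, that of all genes 0.07. The related pair TFPI2 and TFPI, Kunitz inhibitors of plasmin and of the tissue factor pathway, stood opposite ways. TFPI2 was at 10939 to 11646 on Caov-3 arrays and at 1.17 to 4.12 on SKOV-3 arrays (log2 difference 9.21, SE 0.136, limma adjusted p 9.75e-08), and TFPI at 1.59 to 8.86 on Caov-3 arrays and at 2722 to 3050 on SKOV-3 arrays (-6.98, SE 0.191, adjusted p 4.9e-07). SPINT1, which inhibits ST14, was at 5.98, and WFDC2, the ovarian carcinoma antigen HE4, at 5.65. TFPI2, SPINT1 and A2M of this list were below the array median on every SKOV-3 array, and TFPI and CSTA on every Caov-3 array. They passed the filter through the other line alone and could not have passed without differing, so the counts and the median are descriptions. Neither list had a gene called by limma for any treatment.

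**Figure D5:**
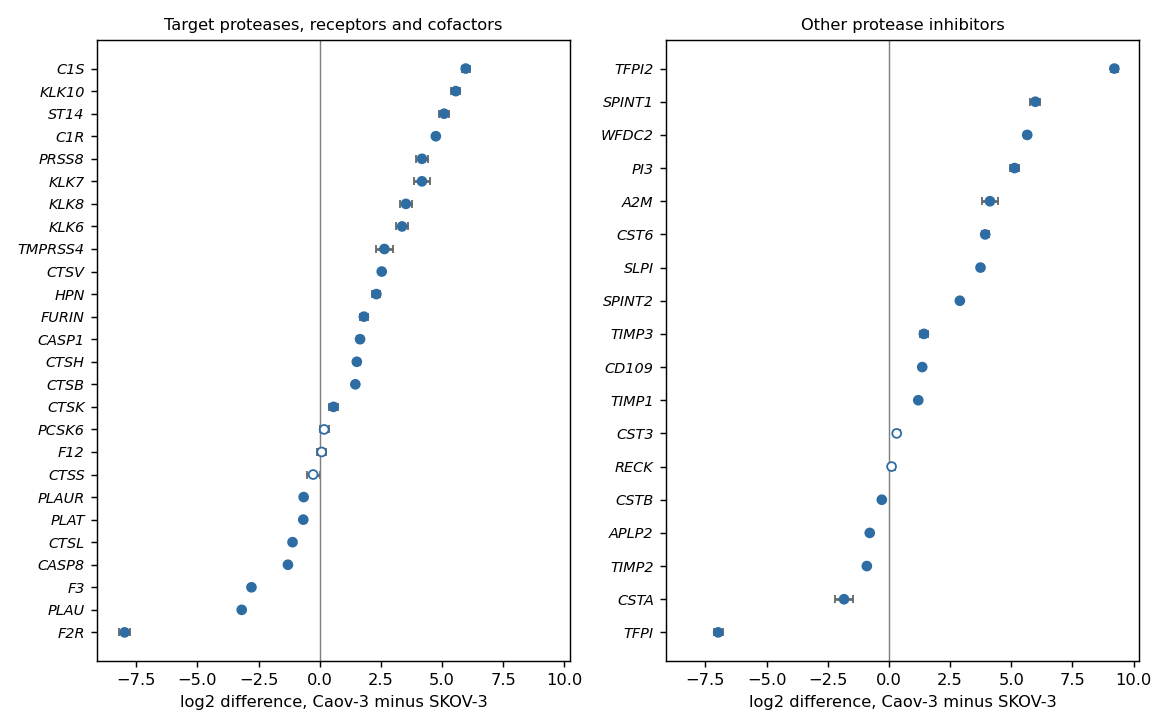
Log2 differences, Caov-3 minus SKOV-3, with limma standard errors, for 26 target proteases, receptors and cofactors of serpins (left) and 18 inhibitors of other families (right). Filled points have an adjusted p under 0.05, and they run from -7.97 (F2R) to 5.96 (C1S) on the left and from -6.98 (TFPI) to 9.21 (TFPI2) on the right. F2R and TFPI passed the filter through SKOV-3 alone, and TFPI2 through Caov-3 alone.

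SERPINH1 was set beside other genes of collagen synthesis in the endoplasmic reticulum. Of 20 tested, 9 were called higher in Caov-3 and 6 higher in SKOV-3, with a median difference of 0.02. Called in either direction were thus 15 of 20, a share near the 70.8% of all genes. The prolyl hydroxylase P3H2 was at 7443 to 8440 in SKOV-3 and 2.12 to 3.78 in Caov-3 (-8.60, SE 0.139, limma adjusted p 1.21e-07). PCOLCE, an enhancer of collagen processing, was at 3.07, the procollagen protease BMP1 at 2.77 and the lysyl hydroxylase PLOD2 at 2.30. P3H2 had passed the filter through SKOV-3 alone and PCOLCE through Caov-3 alone. Neither could have passed without differing, so the counts of this list are descriptions. The collagen chain COL1A1, a client of SERPINH1, was at 3802 to 4826 on Caov-3 arrays and at 217 to 339 on SKOV-3 arrays, and the other 5 fibroblast markers did not pass the filter. Like SERPINH1, the list's FKBP10, MIA2, CRTAP, P3H3 and P3H4 were not called between the lines.

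Among other genes listed with the acute phase response to IL-6, 6 of 17 measured were tested. C3 (4.94), CFB (4.18), A2M (4.13) and LCN2 (3.64) were called higher in Caov-3, and SOCS3 (-0.97) higher in SKOV-3. Of all genes, 38.6% and 32.3% were called in these directions, and STAT3 was not called (-0.30, limma adjusted p 0.528). Of these C3 is the central complement protein, CFB its partner, A2M a trap for proteases of all classes and LCN2 an iron carrier. A2M was below the array median on every SKOV-3 array and so was tested through Caov-3 alone. The classical liver genes CRP, HP, FGA, FGB and FGG did not pass the filter. None of the 6 was called for IL-6 by limma, and C3 was at 0.36 (adjusted p 0.543).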

How the data were processed

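Each array's deposited file gives linear signal intensity by probe set, which the authors computed with Affymetrix Expression Console and MAS5 per the submitters' processing notes. For either tool a version was not given in the sources used here. Their scaling (mean after trimming 2% at each end) was read from the values. Of 54675 probe sets 41091 carried 1 gene symbol in the platform annotation, 1801 several and 11721 none, besides 62 controls, and only those with 1 symbol were used. By identifier 41037 matched a current gene record, and 0 symbols changed. Other serpin genes were not analysed here.

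The log2 scale used here is that of the deposited intensity plus 17.06 (its 20th percentile). A gene was read from the probe set with the highest mean log2 value. All 12290 genes past the filter were fitted with limma 3.58.1 in R 4.3.3 (line and treatment as factors, trended prior variance, 2 residual degrees of freedom) and adjusted over all of them. The fit was tested on simulated data. A comparison of 2 arrays used genes whose higher array reached its median.

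The text gives all members past the filter, members at least 2-fold apart within a line, and the 4 genes with the largest line difference in each list of proteases, inhibitors, collagen synthesis and acute phase genes, besides cell type markers. Members and lists were chosen with earlier results of these data known. Promoters of 23 of the 30 members were matched by symbol in the RefSeq table of GRCh38.p14. Python 3.11.15 was used for these and matplotlib 3.10.9 for the figures. Alternatives covered scaling, pseudocount, filter, probe sets, prior variance, the treatment term and each array left out.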

Additional observations from a re-analysis of the deposited data

How the results depend on the processing

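The count of serpin genes called between the lines was 10 of 13 in the main fit. With the filter raised to the 75th percentile it was 6 of 7 tested, beside 79.2% of all genes. It was 8 to 10 when each array was left out in turn, beside 61.8% to 71.5% of all genes. Without a filter it was 10 of 30, beside 44.6% of all genes, and a dim member was then called while SERPINB8 was not. Under the other alternatives it was 8 to 10, beside 65.5% to 71.9%. SERPINA1, SERPINB1, SERPINB5, SERPINB9 and SERPING1, and also SERPINA3, SERPINB7 and SERPINF1, were called in the same direction wherever they were tested. For SERPINA3, SERPINB7, SERPINF1 and SERPING1 that is a description, since they had passed the filter through 1 line alone. SERPINB8 was not called after quantile normalization (adjusted p 0.057), without a filter (0.0591) or with the mean of all probe sets (0.134), and SERPINE2 not without a trended prior (0.0525) or with the mean of all probe sets (0.199). For the treatments 0 members were called by limma under every alternative, each array left out included. All genes called for IL-6 over untreated were 451 (3.71%) without the SKOV-3 IL-6 array and 3 when that of Caov-3 was left out. For siltuximab plus IL-6 over IL-6 they were 207 (1.7%) without the SKOV-3 IL-6 array, and for siltuximab plus IL-6 over untreated 2 and 3 without these arrays. With a pseudocount at the median (111) or a filter at the 75th percentile, 0 members were at least 2-fold apart in SKOV-3 for IL-6 over untreated and 0 for siltuximab plus IL-6 over untreated. Without a filter the members at least 2-fold apart in SKOV-3 were 7 for IL-6 over untreated, 4 for siltuximab plus IL-6 over IL-6 and 4 for siltuximab plus IL-6 over untreated, and in Caov-3 they were 4, 4 and 3. Those added had no bright array in that line, and the share of all genes without a filter was not counted for these folds. Folds within a line cannot be had without one of their arrays. The labels give no replicate numbers, so arrays were paired by treatment alone. The treatment term matches the lines within a treatment, and without it the count of members called between the lines was 10. Low signal limits what can be said of the 17 dim members.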

Other observations

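SERPINB3 and SERPINB4, neighbours of nearly the same sequence, could not be told apart on 1 probe set that carries both symbols. It was at 53.2, 59.5 and 9.44 in SKOV-3 (untreated, IL-6, siltuximab plus IL-6) and at 28.8, 48.1 and 37.0 in Caov-3, below the median on every array. The probe set of SERPINB4 alone was at 3.6 to 19.1 in SKOV-3 and 2.6 to 2.8 in Caov-3. SERPINB13, a serpin of skin, has 6 probe sets, all below the median on all arrays, at 1.44 to 59.6. Both dim probe sets of SERPINC1 had positive log2 differences, Caov-3 minus SKOV-3, of 1.05 and 1.35, with no test. CASP1 and CASP8, proteases of another class that some clade B serpins and viral serpins block, stood opposite ways between the lines, at 1.65 and -1.30 (limma adjusted p 2.21e-05 and 2.06e-05). The cathepsins did so too, with CTSV at 2.53, CTSH at 1.52 and CTSB at 1.45, and CTSL at -1.11.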
